A study of Mus musculus with 16 samples.

Results

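Genes known for their role in T cells were followed in RNA of splenic B cells that had been selected with beads against B220, a surface form of CD45 carried by B cells. The 9 genes were Cd3d, Cd3e, Cd3g, Lat, Cd4, Cd8a, Thy1, Cd28 and Lck, and every non-control probe with one of these gene names was taken. This gave 11 probes of the 55681 on the array, and 9 of its 34821 gene names. All 11 were among the 32874 probes that were well above background on at least 4 of the 16 arrays. The study compared wild-type mice with mice deficient in the 3'RR, an enhancer region at the far end of the IgH locus that boosts antibody heavy chain transcription. Per the labels, the deficient mice had the IgH allele of 129 origin knocked out in a BALBC background and the strain entry BALBC, and the wild-type mice had the strain entry 129. Genotype and strain entry went together in every sample and cannot be told apart. Each of 2 slides held 4 deficient and 4 wild-type arrays, so there were 4 groups of 4 arrays. No treatment, time point or age is named for any group. Deficient samples are numbered 9 to 12 (slide 1) and 1 to 4 (slide 2), and the wild-type samples 2, 5, 6 and 8 on slide 1 and 1, 2, 3 and 5 on slide 2. The submitters' design text counts 4 mice of each genotype, and each genotype has 8 arrays here. The labels do not tie arrays to single mice, and the p-values therefore reflect the scatter among these samples, part of which can be technical.

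The T cell receptor recognises antigen but has no signalling tail of its own, and passes its signal through the CD3 chains. The tyrosine kinase LCK, carried by the coreceptors CD4 and CD8, phosphorylates paired tyrosine motifs in the CD3 tails, and the membrane adaptor LAT then gathers the signalling proteins downstream. CD28 gives the costimulatory signal, and THY1 is a glycolipid-anchored surface protein long used to mark mouse T cells. B cells use other receptor chains (CD79A and CD79B) for the same purpose. Some of these genes are known outside T cells as well, with Cd4 and Cd8a in subsets of dendritic cells and Lat in NK cells, mast cells and platelets.

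The probe sequences, read from the scanner files, show which part of each message was measured. The Cd3d probe is shown because it lies on the signalling part of the gene. Its capitals mark 2 stretches of codons in 1 reading frame that spell a tyrosine, any 2 amino acids and a leucine, the repeated unit of the paired tyrosine motif.
Cd3d: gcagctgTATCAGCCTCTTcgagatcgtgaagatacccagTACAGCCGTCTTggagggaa
The next 5 are shown as windows of 30 bases because they hold AATAAA, the letters of the common polyadenylation signal, in capitals.
Cd3e: taatgcaaaaggcAATAAAgtgtattggct
Cd4: agctgacagaaaAATAAAggctataaataa
Thy1: aggaaagaaaactgcacAATAAAaccaagc
Cd28: tgcttagcctgcAATAAAtatttattcatt
Lck: tgcctagcacacaccaggagctcAATAAAa
The other Cd4 probe is shown whole, because it lies upstream in the message and was well above background on fewer arrays, 11 of 16.
Cd4 second probe: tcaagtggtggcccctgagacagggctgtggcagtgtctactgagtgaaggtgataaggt

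Positions are those of the file annotation, in build mm9. The 3 CD3 genes lie close together on chromosome 9, with the Cd3g probe at chr9:44777868-44777927 on the minus strand, the Cd3d probe at chr9:44794171-44794402 on the plus strand and the Cd3e probe at chr9:44806828-44806887 on the minus strand. The Cd3d probe is 60 bases long but spans 232 bases of genome, so it crosses at least 1 intron. The Thy1 probe lies on the same chromosome at chr9:43856591-43856650 on the plus strand. The Lat probe lies at chr7:133507719-133507778 on the minus strand, the Lck probe at chr4:129225614-129225673 on the minus strand and the Cd28 probe at chr1:60830144-60830203 on the plus strand. The Cd4 probe with AATAAA lies at chr6:124814711-124814770 and the second at chr6:124817706-124817765, both on the minus strand. The first begins at base 3035 of the transcript it was designed on and the second at base 1242. The 2 Cd8a probes, designed on different transcripts, lie at chr6:71328911-71328970 and chr6:71323885-71323944 on the plus strand. The first begins at base 2875 of its transcript and is called the distal Cd8a probe here. The other begins at base 464 and is called the proximal one. A gene annotation of mm9 was not used here, so exon and UTR borders are not given.

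Levels are log2 of the processed spot signal minus the array's 75th percentile, so 0 means a signal equal to that percentile. Levels of different probes are not compared, since probes differ in how well they bind. This percentile was 576 to 851 signal units on the arrays of slide 1 and 596 to 990 on those of slide 2. Each array of slide 1 had 26041 to 29231 probes well above background, and each array of slide 2 had 29954 to 34174. The 13 B cell genes listed for comparison (among them Cd79b, Ms4a1 and Pax5) were well above background on all 16 arrays. The deficient samples lay at positions 5 to 8 of slide 1 and 1 to 4 of slide 2, and the wild-type samples at the others, so within a slide genotype and position cannot be told apart.

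Messages of all 9 T cell genes were measurable in the B220-selected cells of slide 1, where 10 of the 11 probes were well above background on all 8 arrays. The exception was the second Cd4 probe, well above background on 3 of these 8 arrays. On slide 2 the probe of Cd3g was not well above background on any of 8 arrays, the distal Cd8a probe on 2, the proximal one on 3 and the Cd3d probe on 5. The other 7 probes were well above background on all 8 arrays of slide 2. In bulk RNA, fewer cells of a type and less RNA per cell cannot be told apart.

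**Figure D1:**
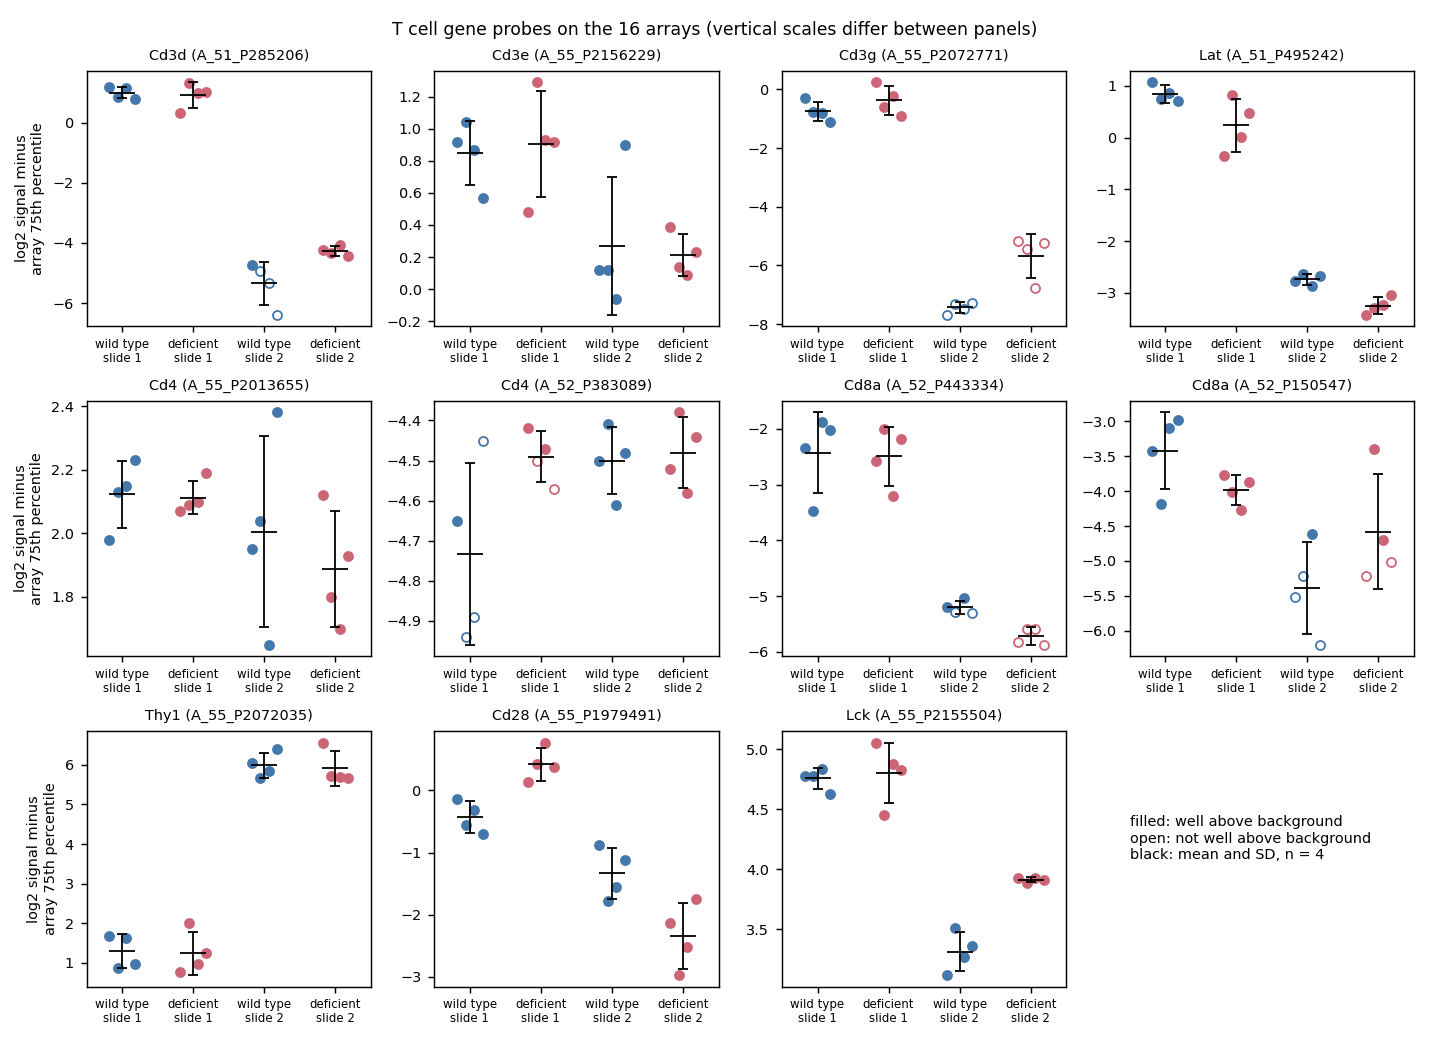
Level of each of the 11 T cell gene probes (vertical axis, log2 signal minus the array's 75th percentile; the scale differs between panels) on each of 16 arrays, by genotype and slide. Filled points were well above background and open ones were not, and black marks give the mean and SD of 4 arrays. The Cd3d, Cd3g and Lat points of slide 2 lie below those of slide 1 in both genotypes, and the Thy1 points lie above.

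The first question was whether the T cell genes differed between deficient and wild-type samples. Over both slides 2 of the 11 probes (Cd3g and Lck) were higher in deficient samples and 1 (Lat) was lower. Of all probes tested, 7.58% were higher and 9.21% lower. On slide 1 alone 1 probe (Cd28) was higher and 1 (Lat) lower, against 9.19% and 14.1% of all probes. On slide 2 alone 3 probes (Cd3g, Cd3d and Lck) were higher and 1 (Cd28) lower, against 3.65% and 3.81% of all probes. The median difference of the 11 probes over both slides was 0 on the log2 scale, beside -0.03 for all probes. These calls rest on 1 limma model with a mean for each group, with p adjusted by Benjamini-Hochberg over all 32874 probes and a threshold of 0.05. Cd3g did not pass on slide 1 (adjusted p 0.434), so its calls came from dim spots of slide 2. Both were lost with dim spots raised to the lowest signal well above background (adjusted p 0.27 over both slides and 0.642 on slide 2). For the Cd3d call on slide 2, 1 of 4 wild-type arrays was well above background. With slide as a random block, 0 of the 11 probes passed in limma over both slides, and 3 had an unadjusted p under 0.05. The levels of 1 probe did not overlap between genotypes on slide 1 and those of 5 on slide 2, where 21.6% and 22.8% of all probes did not overlap.

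**Figure D2:**
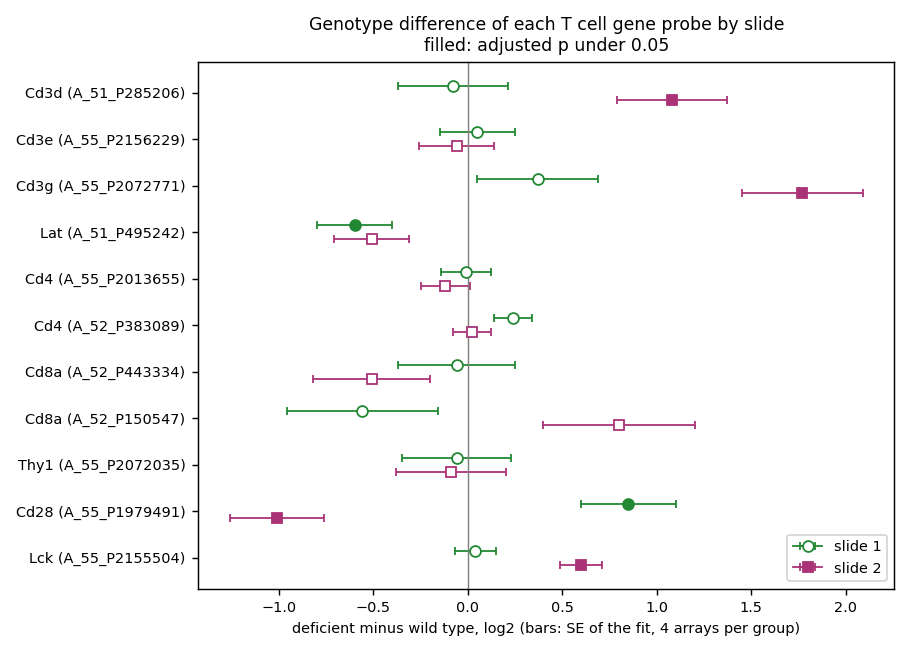
Deficient minus wild-type difference (horizontal axis, log2) of each T cell gene probe on slide 1 (circles) and slide 2 (squares), with the SE of the fit as bars and 4 arrays per group. Filled symbols have an adjusted p under 0.05. Cd28 lies at 0.85 on slide 1 and at -1.01 on slide 2, and the Cd3g square at 1.77 compares arrays that were not well above background.

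Cd3d, Cd3e and Cd3g encode the delta, epsilon and gamma chains of the CD3 complex. On slide 1 the Cd3d levels were 0.80, 0.86, 1.15 and 1.18 in wild type and 0.32, 1.00, 1.03 and 1.32 in deficient samples. The groups overlapped, and the difference was -0.08 (SE 0.29, adjusted p 0.869). On slide 2 the Cd3d levels were -6.38, -5.33, -4.93 and -4.75 in wild type and -4.43, -4.34, -4.24 and -4.06 in deficient samples. Every deficient sample was higher there, but 1 of the 4 wild-type arrays was well above background. The slide 2 difference was 1.08 (SE 0.29, adjusted p 0.0387). It lost the call without deficient 1, 2, 3 or 4 or wild type 3 or 5 of slide 2, with an adjusted p of 0.0592 to 0.0973. It was 0.22 (adjusted p 0.474) after normexp background correction with quantile normalization, and 0.29 (adjusted p 0.391) in the authors' deposited table of log2 values.

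Cd3e was well above background on all 16 arrays. Its levels on slide 1 were 0.57, 0.87, 0.92 and 1.04 in wild type and 0.48, 0.92, 0.93 and 1.29 in deficient samples. On slide 2 they were -0.06, 0.12, 0.12 and 0.90 in wild type and 0.09, 0.14, 0.23 and 0.39 in deficient samples. The genotypes overlapped on both slides, with a difference of 0.05 (SE 0.20, adjusted p 0.87) on slide 1 and -0.06 (SE 0.20, adjusted p 0.92) on slide 2.

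Cd3g levels on slide 1 were -1.10, -0.80, -0.77 and -0.31 in wild type and -0.90, -0.60, -0.24 and 0.24 in deficient samples. The groups overlapped, and the difference was 0.37 (SE 0.32, adjusted p 0.434). On slide 2 the values were -7.67, -7.47, -7.31 and -7.27 in wild type and -6.78, -5.45, -5.25 and -5.18 in deficient samples. These values stood for signals of 3.86 to 5.64 units in wild type and 8.39 to 25.6 units in deficient samples, none of them well above background. The fit gave 1.77 (adjusted p 0.00376) on slide 2 and 1.07 (SE 0.23, adjusted p 0.00609) over both slides, and no fold is given since both groups were dim. With dim spots raised to the lowest signal well above background on their array, the difference over both slides was 0.30 (adjusted p 0.27), and on slide 2 it was 0.22 (adjusted p 0.642).

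Lat encodes the adaptor that links the activated receptor to downstream signalling. Its levels on slide 1 were 0.70, 0.74, 0.86 and 1.07 in wild type and -0.36, 0.02, 0.47 and 0.82 in deficient samples. On slide 2 they were -2.87, -2.77, -2.68 and -2.63 in wild type and -3.42, -3.29, -3.24 and -3.04 in deficient samples. Deficient samples were lower on both slides, with 1 deficient array inside the wild-type range on slide 1 and no overlap on slide 2. The difference was -0.56 (SE 0.14, adjusted p 0.0139) over both slides, -0.60 (SE 0.20, adjusted p 0.0386) on slide 1 and -0.51 (SE 0.20, adjusted p 0.142) on slide 2. The slide 1 call was lost without deficient 9 or 10, any wild-type array of slide 1 or wild type 1 of slide 2 (adjusted p 0.0511 to 0.0999). With each slide fitted alone, the slide 2 difference passed (adjusted p 0.0148) and the slide 1 difference did not (adjusted p 0.153). The difference between the slides' differences was 0.10 (SE 0.28, adjusted p 0.847).

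Lck encodes the kinase that starts receptor signalling. Its levels on slide 1 were 4.63, 4.78, 4.78 and 4.84 in wild type and 4.45, 4.83, 4.88 and 5.05 in deficient samples. On slide 2 they were 3.12, 3.27, 3.36 and 3.51 in wild type and 3.89, 3.91, 3.93 and 3.93 in deficient samples. The groups overlapped on slide 1 and did not on slide 2, where every deficient sample was higher. The difference was 0.32 (SE 0.08, adjusted p 0.0147) over both slides, 0.04 (SE 0.11, adjusted p 0.808) on slide 1 and 0.60 (SE 0.11, adjusted p 0.00497) on slide 2. With slide as an additive block the call over both slides was lost (adjusted p 0.0665). The slide 2 difference exceeded the slide 1 difference by 0.56 (SE 0.16, adjusted p 0.0364). That call was lost on leaving out 9 of the 16 arrays singly (adjusted p 0.0518 to 0.0774), namely wild type 2, 5 or 6 of slide 1, deficient 1, 2, 3 or 4 of slide 2, or wild type 1 or 3 of slide 2. It was also lost with quantile normalization (0.32, adjusted p 0.27) and in the authors' deposited table (0.27, adjusted p 0.302).

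Over all probes, 8.72% had a higher and 5.14% a lower genotype difference on slide 2 than on slide 1 by this test. Among the T cell gene probes 1 was higher (Lck) and 1 lower (Cd28). Cd28 encodes the costimulatory receptor of T cells, and its genotype difference had opposite signs on the 2 slides. Its levels on slide 1 were -0.70, -0.56, -0.31 and -0.14 in wild type and 0.13, 0.37, 0.42 and 0.77 in deficient samples, with no overlap. On slide 2 they were -1.78, -1.55, -1.12 and -0.88 in wild type and -2.97, -2.52, -2.14 and -1.74 in deficient samples, with 1 deficient array inside the wild-type range. The difference was 0.85 (SE 0.25, adjusted p 0.0276) on slide 1 and -1.01 (SE 0.25, adjusted p 0.0262) on slide 2. The slide 2 difference minus the slide 1 difference was -1.86 (SE 0.36, adjusted p 0.00612), and this call held on leaving out any single array. The slide 1 call was lost without deficient 10 or wild type 5 or 8 (adjusted p 0.0585 to 0.0766). It was also lost with array weights (adjusted p 0.136) and without the filter on dim probes (adjusted p 0.0538). The slide 2 call was lost without deficient 2 or 3 or wild type 1 or 5 (adjusted p 0.0698 to 0.0897), and with each slide fitted alone (adjusted p 0.0634). Over both slides the difference was -0.08 (SE 0.18, adjusted p 0.807).

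Cd4 and Cd8a encode the coreceptors that divide T cells into helper and cytotoxic cells, and none of their 4 probes passed in any genotype comparison. The Cd4 probe with AATAAA was well above background on all 16 arrays. Its levels on slide 1 were 1.98, 2.13, 2.15 and 2.23 in wild type and 2.07, 2.09, 2.10 and 2.19 in deficient samples. On slide 2 they were 1.65, 1.95, 2.04 and 2.38 in wild type and 1.70, 1.80, 1.93 and 2.12 in deficient samples. All 4 groups overlapped, and the genotype difference over both slides was -0.07 (SE 0.09, adjusted p 0.682). The second Cd4 probe was well above background on 11 of 16 arrays, with levels between -4.94 and -4.38 over all arrays and a genotype difference of 0.13 (SE 0.07, adjusted p 0.236). It is spotted 10 times on each array, and its spots had a median SD of 0.30 within an array, against 0.06 to 0.23 between the arrays of a group. Its slide 1 difference of 0.24 (adjusted p 0.0932) passed on leaving out 1 array (0.34, adjusted p 0.0199), wild type 8.

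The distal Cd8a probe, also spotted 10 times, had levels of -3.48, -2.34, -2.03 and -1.88 in wild type and -3.20, -2.58, -2.18 and -2.01 in deficient samples of slide 1. Wild type 5 and deficient 10 were the lowest of their groups. On slide 2 its levels were -5.30, -5.28, -5.20 and -5.03 in wild type and -5.87, -5.82, -5.58 and -5.58 in deficient samples, where it was well above background on 2 and 0 of 4 arrays. The genotype difference was -0.06 (SE 0.31, adjusted p 0.912) on slide 1 and -0.51 (SE 0.31, adjusted p 0.38) on slide 2, with no overlap on slide 2. The proximal probe had differences of -0.56 (SE 0.40, adjusted p 0.325) and 0.80 (SE 0.40, adjusted p 0.269), with overlap on both slides. The 2 Cd8a probes thus had opposite signs on slide 2, and neither passed.

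Thy1 levels on slide 1 were 0.88, 0.97, 1.63 and 1.69 in wild type and 0.76, 0.96, 1.24 and 2.00 in deficient samples. On slide 2 they were 5.67, 5.84, 6.04 and 6.41 in wild type and 5.66, 5.70, 5.72 and 6.56 in deficient samples. Genotypes overlapped on both slides, with a difference over both of -0.07 (SE 0.21, adjusted p 0.858).

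A second comparison set the slides against each other within a genotype. The slides differed in samples and scan, and whether sample, preparation, labelling or scan set the difference cannot be told apart. In wild type 8 of the 11 probes were lower on slide 2 and 1 was higher, while 25.3% of all probes were lower and 47.7% higher. In deficient samples 7 were lower and 1 higher, against 25.6% and 49% of all probes. The same 7 probes were lower in both genotypes, and Thy1 was higher in both. The median slide difference of the 11 probes was -1.44 in wild type and -0.88 in deficient samples, where all probes had a median of 0.35 and 0.39. In each genotype 8 of the 11 probes had no overlap between slides, against 68% and 70.2% of all probes.

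Cd3d and Cd3g, 2 of the CD3 chains, showed the widest gaps among the members that were lower, and the third did not. Cd3d was lower on slide 2 in wild type (-6.34, SE 0.29, adjusted p 2.16e-10), where 1 of 4 slide 2 arrays was well above background, and 36.3-fold lower in deficient samples (-5.18, SE 0.29, adjusted p 1.12e-09). After normexp with quantile normalization the Cd3d differences were -4.07 and -3.78, and those of Cd3g were -3.06 and -2.96, all past the threshold. The Cd3d signal was 1050 to 1740 units on slide 1 arrays and 7.15 to 55.6 units on slide 2 arrays. Cd3g was at least 24.5-fold lower in wild type (adjusted p 3.07e-10) and at least 27.1-fold lower in deficient samples (adjusted p 2.43e-09). These Cd3g folds are bounds on the main scale, in which each slide 2 array counts with its own signal or, where that is higher, the lowest signal among probes well above background. Cd3e was 1.5-fold lower in wild type (-0.58, SE 0.20, adjusted p 0.0174) and 1.62-fold lower in deficient samples (-0.69, SE 0.20, adjusted p 0.00627). The wild-type call for Cd3e was lost without wild type 3 of slide 2 (-0.48, adjusted p 0.0592), and its wild-type levels overlapped between slides.

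Lat was 12-fold lower on slide 2 in wild type (-3.58, SE 0.20, adjusted p 9.56e-10) and 11.2-fold lower in deficient samples (-3.48, SE 0.20, adjusted p 1.01e-09). Lck was 2.72-fold lower in wild type (-1.44, SE 0.11, adjusted p 4.68e-08) and 1.85-fold lower in deficient samples (-0.88, SE 0.11, adjusted p 7.03e-06). Cd28 was 1.87-fold lower in wild type (-0.90, SE 0.25, adjusted p 0.00531) and 6.80-fold lower in deficient samples (-2.76, SE 0.25, adjusted p 1.83e-07). After normexp with quantile normalization Lat had -3 and -2.76. For these 3 genes no array of slide 2 reached the slide 1 range of its own genotype.

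The distal Cd8a probe was lower on slide 2 in wild type (-2.77, SE 0.31, adjusted p 1.44e-06), where 2 of 4 slide 2 arrays were well above background, and at least 6.24-fold lower in deficient samples (adjusted p 2.6e-07). The proximal Cd8a probe was lower in wild type (-1.97, SE 0.40, adjusted p 0.000478), where 1 of 4 slide 2 arrays was well above background. It had a difference of -0.60 (SE 0.40, adjusted p 0.186) in deficient samples. Without deficient 2 of slide 2, whose level of -3.39 was the highest of its group, that difference was -1 (adjusted p 0.0173). After normexp with quantile normalization the wild-type differences of the distal and proximal probes were -1.29 and -0.87, and the deficient difference of the distal probe was -1.31, all past the threshold. The Cd4 probe with AATAAA had slide differences of -0.12 (SE 0.13, adjusted p 0.427) in wild type and -0.22 (SE 0.13, adjusted p 0.136) in deficient samples. With median scaling it passed as lower in both genotypes (-0.50, adjusted p 0.00404, and -0.52, adjusted p 0.00307). The second Cd4 probe had 0.23 (SE 0.10, adjusted p 0.0507) and 0.01 (SE 0.10, adjusted p 0.957), and in wild type it passed without wild type 2 or 8 of slide 1 or wild type 3 of slide 2 (adjusted p 0.00506 to 0.0485).

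Thy1 went the other way, 26-fold higher on slide 2 in wild type (4.70, SE 0.29, adjusted p 3.56e-09) and 25.5-fold higher in deficient samples (4.67, SE 0.29, adjusted p 3.08e-09). Its signal was 1060 to 2640 units on the slide 1 arrays and 45500 to 85700 units on the slide 2 arrays. It was the only one of the 9 genes that was higher on slide 2.

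**Figure D3:**
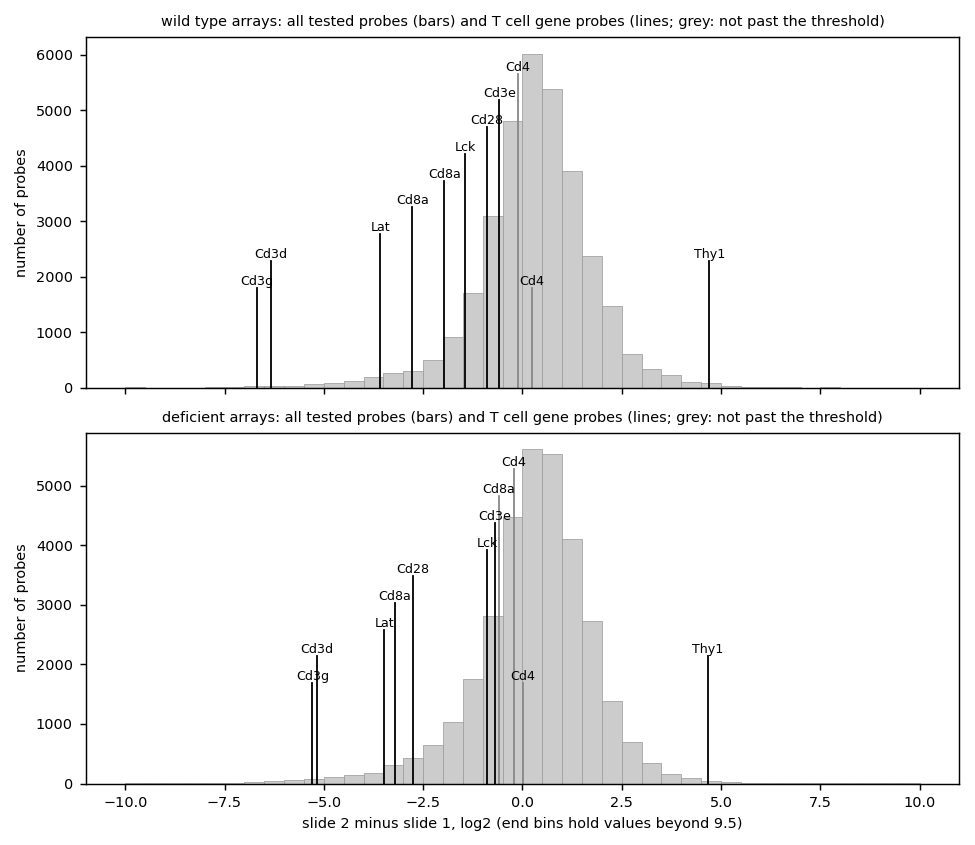
Slide 2 minus slide 1 difference (horizontal axis, log2) of all 32874 tested probes as grey bars (vertical axis, number of probes per bin of 0.5) and of the 11 T cell gene probes as labelled lines, in wild-type and deficient samples. Line heights carry no meaning. Cd3g and Cd3d lie at the left, Thy1 at the right and both Cd4 probes near 0.

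Other genes of the T cell receptor pathway and of T cell identity were taken from 4 lists of 49 names, of which 39 were on the array and 35 were measured (the other 4 were filtered out as dim). The brightest probe stood for a gene. Of these 35 genes 4 were higher and 4 lower in deficient samples over both slides, with a median difference of -0.05. On slide 2 against slide 1, 27 were lower and 4 higher in wild type (median -2.48), and 26 lower and 4 higher in deficient samples (median -1.96). Of all probes 25.3% were lower and 47.7% higher in wild type, and 25.6% and 49% in deficient samples. The 26 genes that were lower in deficient samples were all lower in wild type as well. Dim members enter these medians with their fitted values.

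The T cell receptor chain list matched only 3 names. The probe of Cd247, the zeta chain of the complex, had slide differences of -0.01 (adjusted p 0.987) in wild type and 0.55 (adjusted p 0.197) in deficient samples. Tcrb-J was 2.77-fold lower on slide 2 in wild type (adjusted p 2.55e-05) and at least 3.17-fold lower in deficient samples (adjusted p 2.37e-06). The fit called Tcra higher on slide 2 in deficient samples (adjusted p 0.0279), but it was dim in a group and no fold is given. Its wild-type difference was 1.01 (adjusted p 0.145).

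Of 14 signalling genes, 12 were lower on slide 2 in wild type and 11 in deficient samples. Zap70, the kinase recruited to phosphorylated CD3 chains, was 32.2-fold lower in wild type (adjusted p 8.4e-10) and 21.1-fold lower in deficient samples (adjusted p 2.49e-09). Lcp2, which encodes the adaptor SLP-76, was the 1 signalling gene that was higher, by 7.14-fold (adjusted p 2.05e-09) and 4.84-fold (adjusted p 1.65e-08). Of 10 surface genes, 8 were lower in each genotype. Cd2, an adhesion receptor, was 7.91-fold lower (adjusted p 9.26e-11) and 6.49-fold lower (adjusted p 1.8e-10), and Cd8b1, the partner chain of Cd8a, was at least 10.2-fold lower in wild type (adjusted p 8.53e-09) and had a difference of -3.10 in deficient samples (adjusted p 5.22e-08), where 1 of 4 slide 2 arrays was well above background. Ctla4, an inhibitory receptor that shares its ligands with CD28, was 5.00-fold higher in wild type (adjusted p 0.000176) and 3.73-fold higher in deficient samples (adjusted p 0.000906). Of 8 transcription factors 6 were lower in each genotype, and Lef1 was higher by 4.05-fold (adjusted p 0.000269) and 2.87-fold (adjusted p 0.00242).

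Between genotypes, Tbx21, Grap2 and Il7r were the 3 of these 35 genes that passed in the same direction on both slides. Tbx21 encodes T-bet, a transcription factor of T helper 1 and NK cells that is also made by some B cells. It was higher in deficient samples by 1.84 over both slides (SE 0.20, adjusted p 2.64e-05), by 1.54 on slide 1 (adjusted p 0.00198) and by 2.14 on slide 2 (adjusted p 0.000256), where 2 of 4 wild-type arrays were well above background. Grap2, an adaptor that binds LAT and SLP-76, was higher by 0.73 (SE 0.09, adjusted p 8.73e-05), and the 2 slides gave 0.51 and 0.95. Il7r, the receptor of the survival factor interleukin 7, was lower (-0.86, SE 0.18, adjusted p 0.00543), and the 2 slides gave -0.77 and -0.96.

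The other 5 genes past the threshold over both slides did not pass on both. Fyb, an adaptor of the same pathway, was lower (-0.69, SE 0.17, adjusted p 0.0128), and it passed on slide 2 alone. There 1 of 4 deficient arrays was well above background. The combined Fyb difference missed the threshold under a random slide block (adjusted p 0.18), after normexp with quantile normalization (-0.29, adjusted p 0.124) and in the authors' deposited table (-0.33, adjusted p 0.0975). Ms4a4b, a membrane protein of T cells, was higher (0.61, SE 0.18, adjusted p 0.0316), a call lost without any 1 of 9 arrays (adjusted p 0.05 to 0.0635). These were deficient 11 and 12 and wild type 5 and 8 of slide 1, and deficient 2, 3 and 4 and wild type 1 and 5 of slide 2. Il2rb, a chain of the interleukin 2 receptor, was higher (0.59, SE 0.12, adjusted p 0.00517), with 1.06 on slide 1 and a difference between the slides' differences of -0.93 (SE 0.25, adjusted p 0.0247). Fyn, a kinase related to LCK that B cells also express, was lower (-0.37, SE 0.10, adjusted p 0.0235), a call lost with median scaling (adjusted p 0.0802). Sit1, a membrane adaptor that dampens receptor signalling, was lower (-0.29, SE 0.09, adjusted p 0.0379), a call lost without any 1 of 10 arrays (adjusted p 0.0513 to 0.08). These were deficient 10 and 12 and wild type 6 and 8 of slide 1, and deficient 1, 2 and 4 and wild type 1, 2 and 3 of slide 2.

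Many markers of other cells were also lower on slide 2, where 25.3% of all probes were lower in wild type and 25.6% in deficient samples. Of 9 measured NK cell genes, all 9 were lower on slide 2 in both genotypes, with medians of -3.89 in wild type and -4.67 in deficient samples. Their summed level, on a linear scale relative to the array's 75th percentile, was 10.4 to 30 on slide 1 and 2.86 to 4.30 on slide 2. Of 11 macrophage genes 10 were lower in wild type (median -6.28) and 11 in deficient samples (median -5.88), with sums of 74.0 to 190 on slide 1 and 6.94 to 8.85 on slide 2. Of 8 neutrophil genes 5 and 6 were lower (medians -4.04 and -3.98), with sums of 3.80 to 146 and 3.31 to 5.95. Conventional and plasmacytoid dendritic cell, erythroid and platelet lists had medians between -4.21 and -0.14. Of 6 conventional dendritic cell genes 4 were lower and 2 higher in each genotype. Their summed level was 5.50 to 14.1 on slide 1 and 18.5 to 30.9 on slide 2, and this rise lay in Flt3. Mean Flt3 levels were 1.54 (deficient) and 1.04 (wild type) on slide 1, and 4.71 and 4.22 on slide 2. Zbtb46 was also higher on slide 2 but dimmer (-1.66 and -1.42), and Itgax, Clec9a, Cd209a and Clec4a4 had lower means there. Of the 9 NK genes, 3 in wild type and 5 in deficient samples were not well above background on any slide 2 array. The part of these cells in the slide difference of the T cell genes was not tested.

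B cell genes moved too. Of 13, 11 were lower on slide 2 in wild type (median -1.13), and 10 were lower and 2 higher in deficient samples (median -1.19). Their summed level was 1340 to 1650 on slide 1 and 793 to 982 on slide 2. Cr2, the complement receptor of mature B cells, had slide differences of -6.73 and -6.45, of the size seen for Cd3d. The 9 T cell genes summed to 37.6 to 44.8 on slide 1 and 68.0 to 116 on slide 2, where the Thy1 probe alone stood at 45500 to 85700 signal units.

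The same lists were also compared between genotypes, where 7.58% of all probes were higher and 9.21% lower in deficient samples over both slides. Over both slides 0 of the 9 NK genes passed in limma (1, Klrd1, with an unadjusted p under 0.05), with a median of -0.04. Of 11 macrophage genes 1 passed, Cd5l, a secreted macrophage protein, which was higher in deficient samples on both slides (2.93 over both, SE 0.26, adjusted p 3.79e-06). On slide 2, where no wild-type array was well above background for Cd5l, it was at least 8.72-fold higher. The value over both slides holds these dim spots. For 13 B cell genes 1 was higher and 1 lower. The NK list had a median of 0.12 on slide 1 and -0.14 on slide 2, where all probes had -0.07 and 0.01. On either slide 0 of the 9 NK genes passed. The neutrophil list had a median of 0.88 on slide 1, where 1 of its 8 genes passed, and -0.05 on slide 2. Of 6 erythroid genes 2 were higher and 1 lower over both slides. On slide 2 the globin gene Hbb-b1 was at least 33.6-fold higher in deficient samples (adjusted p 1.78e-05) and the globin gene Hba-a1 30.4-fold higher (adjusted p 0.000107). The other erythroid genes did not pass there, with 0.66 for Alas2, -0.29 for Slc4a1, -0.15 for Klf1 and -0.29 for Hemgn. Of 6 conventional dendritic cell genes on slide 1, Itgax (1.56, adjusted p 0.0322) and Flt3 (0.49, adjusted p 0.0462) were higher and Cd209a (-1.55, adjusted p 0.0122) was lower. The median of this list was 0.04 on slide 1, where 9.19% of all probes were higher and 14.1% lower. On slide 2 none of the 6 passed, and Itgax had the opposite sign (-1.57, adjusted p 0.0653). None of the 5 plasmacytoid dendritic cell and 4 platelet genes passed in limma over both slides (1 and 0 with an unadjusted p under 0.05). The part of these cells in the genotype differences of the T cell genes was not tested.

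**Figure D4:**
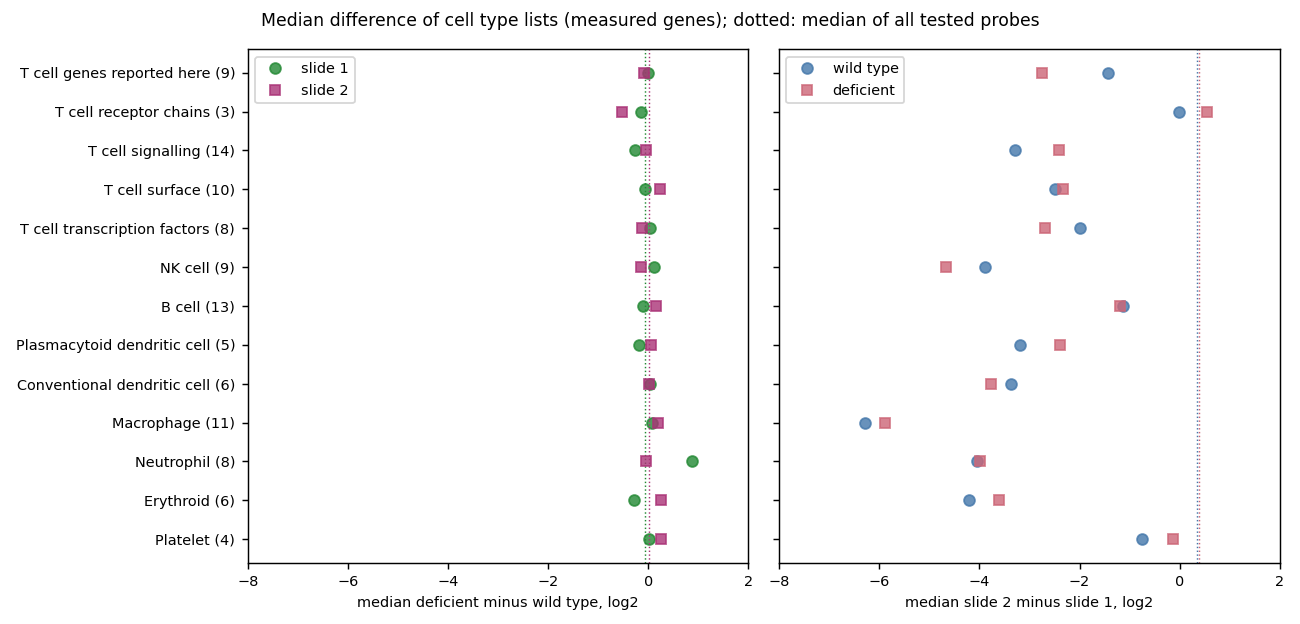
Median log2 difference of each cell type list, with the number of measured genes in brackets. The left panel gives deficient minus wild type on slide 1 (circles) and slide 2 (squares), and the right panel gives slide 2 minus slide 1 in wild-type (circles) and deficient samples (squares); dotted lines are the medians of all tested probes. With 1 probe per gene the T cell genes reported here lie at -1.44 and -2.76 on the right, and the macrophage list lies farthest left at -6.28 and -5.88.

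The AATAAA letters described with the probe sequences were looked for on the given strand of each probe after the values had been seen. They are in 5 of the 11 T cell gene probes and in 10.1% of all 55681 probes. The 5 probes with the motif had a median slide difference of -0.58 in wild type and -0.69 in deficient samples. The 6 probes without it had -3.18 and -3.35. All tested probes with the motif had medians of 0.24 and 0.34, and those without it 0.37 and 0.40. The 3 other T cell genes whose probe holds the motif were lower on slide 2 with medians of -5.00 and -5.44, a wider gap than for the 5 probes. A match describes the probe only.

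Among the arrays of a group the T cell genes varied with mixed signs. After each group's mean was taken off, the Pearson correlation over the 16 arrays was -0.24 for Cd3d with Cd3e, -0.36 for Cd3d with Cd3g and 0.06 for Cd3e with Cd3g. On slide 2 the Cd3g probe was not well above background on any array and the Cd3d probe was dim on 3 of 8, so on that slide these correlations hold the scatter of dim spots. Among the 36 pairs of the 9 genes it ran from -0.56, for Lat with Lck, to 0.67, for Cd3e with Thy1. Of 16589 probes of other genes that were well above background on all arrays, the 10 most like the mean of the 3 CD3 genes had correlations of 0.74 to 0.81. Those with a gene symbol were Srrm1, Eid2, Capn2, D15Ertd621e, Plbd1, Pdxk and Klk1b22, none of which was on the T cell lists. Their correlations with the single chains were uneven. With Cd3d, Cd3e and Cd3g in turn they were 0.28, 0.46 and 0.40 for Srrm1, and -0.05, 0.21 and 0.78 for Klk1b22. The CD3 mean holds the dim Cd3g and Cd3d values of slide 2, and the arrays share slide and scaling, so these correlations are a description.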

How the data were processed

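Total RNA (0.2 microgram, RIN 9 per the labels) was measured on 16 single-colour (Cy3) Agilent arrays. The intensity values are the authors' scanner output, made by Agilent's Feature Extraction software (10.7.3.1) per the file headers, background-subtracted and not normalized between arrays. A deposited table of log2 values, scaled by the authors separately for each slide, served as an alternative within slides. The submitters' processing notes name limma for some samples, and its role is not given in the sources used here.

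Here, control spots and spots marked as outliers were left out (121 probe values fell out of the fit), and the log2 processed signal, less the 75th percentile of its array, was averaged over the spots of a probe. A probe counted as well above background on an array when a share of at least 0.5 of its spots did. All comparisons came from a single model of 4 group means in limma 3.58.1 under R 4.3.3, with Benjamini-Hochberg adjusted p under 0.05 as the threshold. Only the comparison over both slides was tried on simulated arrays, with normal noise and equal genotype differences on both slides. It recovered 79 of 100 differences of 1 log2 unit and 93 of 100 of 2 units, with 13 false calls. The other comparisons were not tried in this way. No block for the labels' sample numbers was used, and whether these numbers pair the slide 2 samples was not settled. The slide 2 count with such a block is given at the end. Precision is limited by the number of arrays.

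The T cell genes and all lists were chosen with earlier results of these data known. Named were every T cell gene probe, the other T cell genes past the threshold over both slides (up to 10 by size), those passing on both slides, and the 10 genes most like the CD3 genes. Gene names are those of the array design.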

Additional observations from a re-analysis of the deposited data

Results flagged for a closer look

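Of 44 groups of 4 arrays (11 probes in 4 groups), 2 held an array far from the other 3, where chance gives about 1 in 20. Cd3g had a value of -6.78 in deficient 3 of slide 2, with the others between -5.45 and -5.18 and none well above background. Thy1 had a level of 6.56 in deficient 1 of slide 2, with the others between 5.66 and 5.72.

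The T cell gene probes and the other T cell genes past the threshold over both slides were checked for a genotype difference that differed between slides. In limma 3 of these genes passed. For Cd28 the slide 2 difference minus the slide 1 difference was -1.86 (adjusted p 0.00612), for Lck it was 0.56 (adjusted p 0.0364) and for Il2rb it was -0.93 (adjusted p 0.0247). Among all 35 other T cell genes 1 was higher and 3 lower by this test, Il2rb and Tcf7 (-1.63, adjusted p 0.00363) among the lower. Of all probes 8.72% were higher and 5.14% lower.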

How the results depend on the processing

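Of 1887 values of the T cell gene probes and other named genes under alternatives, 1778 kept their direction and side of the threshold (or were called in neither), 86 lost a call, 21 gained one and 2 reversed. The second Cd4 probe in deficient samples, slide 2 against slide 1, went from 0.01 to -0.29 with median scaling and -0.31 with quantile normalization. Median scaling moved the slide median of all probes from 0.35 to -0.03 in wild type and from 0.39 to 0.10 in deficient samples, and the T cell gene probes then counted 9 lower and 1 higher in each. No slide call reversed. Counts of T cell gene probes moved as follows. Over both slides the random slide block gave 0 in place of 3, and 5 in place of 8 other T cell genes. On slide 1, with 2 called, there were 0 without the filter on dim probes (3 with an unadjusted p under 0.05), 1 with each slide fitted alone, 1 with array weights and 0 to 2 on leaving out 1 array. On slide 2, with 4 called, there were 2 after normexp with quantile normalization, 2 in the authors' table, and 2 to 4 on leaving out 1 array. Between the slides' differences, with 2 called, there were 1 without the filter, 1 with array weights and 1 to 3 on leaving out 1 array. The cause was not tested. With the label number as a replicate block on slide 2, 1 probe passed in place of 4. Samples of the same number had correlations of 0.01, 0.10 and 0.06, and 2 of 3 deficient samples correlated best with their own number.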
